A study of Mus musculus with 2 samples.

Results

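Brain cycling progenitors with little Dcx were 219 cells of 4569 kept brain cells (4.79%, exact 95% interval 4.19 to 5.45%), from a series of 10621 cell barcodes in brain and lung. They were chosen by their counts of unique molecular identifiers (UMIs, which stand for single captured RNA molecules). A kept brain cell had more than 200 genes and under 40% of its UMIs in mitochondrial genes, with no upper limit on genes. A member had at least 2 UMIs of Mki67 and Top2a together, at most 1 UMI of Dcx, at most 1 of Pdgfra and Cspg4 together, and at most 1 of Cldn5 and Flt1 together. Of the 219 members, 74 (33.8%) had 4000 genes or more and would fall outside the upper limit that the study's methods set on genes per cell. The cell total given for brain equals the number of barcodes in the deposited table before any filter, so whether that limit was applied there is not known.

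The cells came from mice of about 6 weeks that carry a Nestin-GFP transgene, in which regulatory elements of the Nestin gene drive a green fluorescent protein, and no treatment is given. Brain and lung were dissociated with trypsin, GFP-positive cells were sorted, and each tissue was made into 1 droplet library (10x Chromium 3′ chemistry), as part of a search for neural stem cells (NSCs) in lung. The labels give the strain as C57BL/6, whereas the methods describe wild-type CD1 and mixed CD1 and C3H mice with which transgenic lines were bred. The library is given as a single biological replicate, and the number of mice in it is not given in the sources used here. The sort rested on the reporter, so only cells with GFP are seen, and GFP protein can outlast Nestin transcription. The library was made from whole brain, so the region that a cell came from is not known.

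All comparisons were made within the 1 brain library, so there is no replicate of any group and no test. Levels are UMIs of a gene summed over a group per 1000000 UMIs of that group (CPM), and ratios are given with the exact 95% interval of the 2 counts, which covers counting error only. A gene was called higher or lower where its ratio was at least 2 or at most 0.5. The members were set beside 3 groups. Non-cycling cells (3620 cells) had no Mki67 or Top2a UMI and held cells of many types. Cycling neuroblasts (463 cells) met the same rule except that they had at least 2 Dcx UMIs. Activated non-cycling cells (171 cells) had no Mki67 or Top2a UMI, at least 2 UMIs over genes of activated progenitors that include Egfr, and met the other limits.

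In the adult rodent forebrain, NSCs of the subventricular zone are astroglia-like cells that are mostly quiescent. When activated they take up Egfr, enter the cell cycle and give rise to transit-amplifying progenitors, which carry the Dlx factors and divide rapidly. These produce neuroblasts, which carry the microtubule protein Dcx, still divide for some rounds, and migrate to the olfactory bulb. Notch signalling keeps stem cells undifferentiated, with Hes1 and Hes5 as effectors, while ligands such as Dll1 are carried by cells that go on to differentiate. In the cell cycle, E2F factors switch on the genes of S phase, and B-MYB and FOXM1 with the MuvB complex switch on the genes of G2 and mitosis.

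The members were deep libraries of single cells. Their median was 9944 UMIs (range 476 to 42805) and 3632 genes, close to the cycling neuroblasts (median 9931 UMIs) and above the non-cycling cells (median 4039.5 UMIs). The rule asked for 2 UMIs, which deep cells reach more readily, so shares of cells with a UMI are also given after each cell was thinned at random to 2000 UMIs. This left 198 members, with 21 too shallow. Over the whole group, 1 UMI was worth 0.464 CPM. The genes of the rule describe the choice and are no finding. Mki67, a chromosome surface protein of dividing cells, stood at 885 CPM and had a median of 5 UMIs per member, with a highest value of 67. Top2a, the topoisomerase that untangles replicated DNA, stood at 1630 CPM with a median of 8 UMIs and a highest value of 86. No Mki67 UMI was found in 23 members and no Top2a UMI in 14. The 2 genes together had a median of 13 UMIs per member, and 127 members had at least 10. Dcx had 1 UMI in 82 members and none in 137.

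Markers of most other cell types were low. The limits of the rule keep down those of endothelial cells and oligodendrocyte progenitors, and non-cycling cells still hold these types, so their values are a description. In the cycling neuroblasts, under the same limits, the endothelial markers outside the rule summed to 4.35 CPM and those of oligodendrocyte progenitors to 53.5 CPM. Pecam1 and Cdh5, which define endothelial cells, had no UMI, and the 5 endothelial markers outside the rule summed to 5.57 CPM against 535 CPM in non-cycling cells. Tmem119, C1qa, C1qb and C1qc, microglial genes, had no UMI, and the 7 microglial markers summed to 2.78 CPM against 296. Col1a1, Lum and Slc6a13 of fibroblasts and Kcnj8, Acta2 and Notch3 of mural cells had none. The 5 oligodendrocyte progenitor markers outside the rule summed to 44.1 CPM against 697, with 33 of those UMIs in 1 member (the oligodendrocyte-marker cell described next), and the 6 ependymal markers to 41.8 CPM against 466, with 80 UMIs in 1 member. The 6 markers of mature neurons summed to 71.9 CPM against 79.2 in non-cycling cells and 84.0 in cycling neuroblasts, with a UMI in 77 members, at most 10 in 1 cell and no Slc17a7. The 2 of them that were tested went opposite ways, with Rbfox3, a neuronal splicing factor, at 3.49 and Snap25, a synaptic protein, at 0.639 against non-cycling cells, and at 2.58 and 0.498 against the neuroblasts. A single member held 465 UMIs of mature oligodendrocyte markers, while no other member had more than 3. That cell was also the largest, with 42805 UMIs and 6802 genes, and it carried 200 of the 211 Mag UMIs of all members. Mag and Mbp, which encode myelin proteins, and Nfasc are therefore among the genes most above cycling neuroblasts (ratios 13.1, 4.54 and 5.12), and without that cell the ratios were 0.698, 1.49 and 0.856 in the same order. Scrublet called 3 of the 219 members (1.37%) as doublets, against 61 of 4569 kept cells (1.34%). The brain and lung libraries shared 15 barcodes, 1 of them a member's.

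The remaining marker of the label, Egfr, was not used by the rule and was present. Egfr, the receptor for epidermal growth factor (chromosome 11, 16752203 to 16913907, GRCm38.p6), stood at 274 CPM and was found in 134 of 219 members, with 0 to 27 UMIs per cell and a median of 118 CPM. In non-cycling cells it stood at 41.8 CPM, a ratio of 6.54 (5.86 to 7.31). When the limits on Dcx, Pdgfra, Cspg4, Cldn5 and Flt1 were put on the non-cycling cells too, the ratio was 4.17. After thinning, 31.3% of members (24.9 to 38.3%) had an Egfr UMI, against 6.32% of non-cycling cells and 0.389% of endothelial-marker cells, which should lack the gene. Those were 320 cells with at least 4 UMIs of Cldn5 and Flt1 together, of which 1 of 257 deep enough to thin had an Egfr UMI (median 4206 UMIs before thinning, against 10230 in the members). The share of members was thus far above that background, and it did not cover all members. With the rule itself applied to thinned cells, which admitted 411 cells because thinning also removes Dcx UMIs, the ratio to non-cycling cells was 2.64.

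The comparison with non-cycling cells follows the rule closely, since genes of the cell cycle go with Mki67 and Top2a, and it is given as a description. Of 9809 genes with a mean of at least 10 CPM over the 2 groups, 1085 (11.1%) were higher in the members and 1966 (20%) were lower. All 38 tested genes of the S phase list were higher and 49 of 51 genes of the G2/M list (Mki67 and Top2a left out) were higher. The median log2 ratio was 3.45 in the S phase list and 5.76 in the G2/M list, against −0.07 over all tested genes. Nothing is read from these counts, since the rule used this contrast. The 2 genes of the G2/M list that were not past 2-fold were Hn1 and Tubb4b, a tubulin gene.

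Many of the highest ratios, although not all, belonged to genes of mitosis. Bub1, a kinase of the spindle checkpoint, had 285 UMIs in the members and 9 in the 3620 non-cycling cells, a ratio of 255 (132 to 563). Esco2, which acetylates cohesin, had a ratio of 224. Hmmr, a spindle protein, had a ratio of 213 and Aurkb, the kinase of the chromosomal passenger complex, one of 209. Birc5, its partner, stood at 429 CPM with a ratio of 113 (87.8 to 147). Among genes in none of the 12 cell cycle lists, the mitotic kinases Pbk (ratio 176), Melk (101) and Plk1 (86.8), the spindle pole gene Aspm (110) and the midzone protein Prc1 (50.6) stood near the top. Replication-dependent histone genes did so too, with Hist1h3c at 162, Hist1h2ab at 98.2 and Hist1h1b at 93.5, although near-identical histone copies can share reads. 2810417H13Rik, listed under that clone name, stood at 1227 CPM with a ratio of 65.3.

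The lists of the replication and division machinery were higher almost throughout. All 20 tested genes of replication origins and helicases were higher, among them Mcm3 (ratio 20.2), Mcm2 (12) and the loading factor Cdc6 (31.3). Of 16 nucleotide synthesis genes 14 were higher, including Rrm2 of ribonucleotide reductase (52.3, at 524 CPM), thymidine kinase Tk1 (34.5) and thymidylate synthase Tyms (15.8). All 21 genes of the kinetochore and spindle checkpoint and all 13 mitotic kinesins were higher. Summed over the lists, kinetochore genes stood at 4723 CPM against 110.5 CPM in non-cycling cells, and mitotic kinesins at 1767 against 36.5 CPM. Of the cyclins and their kinases 15 of 16 were higher, such as Ccnb1 (160), Cdk1 (95.5), Ccna2 (75.4), Ccne1 (21.3) and Cdk6 (11.7). Of 20 DNA repair genes 19 were higher. Among transcription factors of the cycle Foxm1 was at 88.6, E2f2 at 28.9 and E2f1 at 9.39, and 13 of 17 were higher and 1, Mycl, lower.

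Genes that restrain the cycle did not go one way. Of 11 tested, 5 were higher and 2 were lower, beside 11.1% and 20% of all tested genes, so the share that was lower is near that of all genes. Rbl1, the p107 pocket protein, had a ratio of 10.4, the CDK inhibitor Cdkn2c one of 6.49, the growth arrest gene Gadd45g one of 6.48, Cdkn2d one of 2.96 and Btg2 one of 2.18. Btg1, an antiproliferative gene, was lower at 0.404, as was Cdkn1c, which encodes p57, at 0.467. Cdkn1b, which encodes p27, had a ratio of 1.23, under the limit for a call.

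The sequences before the start sites of the most abundant list genes that hold the motifs are shown, because genes of the 2 phases are known to be switched on through different sites. They are the 250 bases before the start, from RefSeq (GRCm38.p6), 5′ to 3′ on the strand of the gene. For the G2/M genes Hmgb2 (chr8:57511593-57511842, plus strand) and Anp32e (chr3:95929007-95929256, plus strand), capitals mark the cell cycle homology region TTTGAA and the CCAAT box, on either strand. For the S phase genes Cdca7 (chr2:72475969-72476218, plus strand) and Mcm6 (chr1:128359706-128359955, minus strand), capitals mark the E2F forms TTCCCGC and TTGGCGC, on either strand.
Hmgb2: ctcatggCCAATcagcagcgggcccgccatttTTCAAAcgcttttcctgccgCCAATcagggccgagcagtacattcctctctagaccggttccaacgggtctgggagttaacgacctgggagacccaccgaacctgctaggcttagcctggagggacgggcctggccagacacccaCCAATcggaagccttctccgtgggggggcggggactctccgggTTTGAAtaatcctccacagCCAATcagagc
Anp32e: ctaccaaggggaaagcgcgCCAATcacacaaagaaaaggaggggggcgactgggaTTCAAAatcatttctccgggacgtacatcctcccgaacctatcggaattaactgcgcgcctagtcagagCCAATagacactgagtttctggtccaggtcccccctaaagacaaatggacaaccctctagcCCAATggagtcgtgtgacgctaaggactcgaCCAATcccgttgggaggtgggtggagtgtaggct
Cdca7: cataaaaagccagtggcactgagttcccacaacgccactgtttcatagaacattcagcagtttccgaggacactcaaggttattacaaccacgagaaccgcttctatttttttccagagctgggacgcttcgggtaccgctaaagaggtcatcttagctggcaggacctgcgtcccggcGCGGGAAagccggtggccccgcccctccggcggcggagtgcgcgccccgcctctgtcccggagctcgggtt
Mcm6: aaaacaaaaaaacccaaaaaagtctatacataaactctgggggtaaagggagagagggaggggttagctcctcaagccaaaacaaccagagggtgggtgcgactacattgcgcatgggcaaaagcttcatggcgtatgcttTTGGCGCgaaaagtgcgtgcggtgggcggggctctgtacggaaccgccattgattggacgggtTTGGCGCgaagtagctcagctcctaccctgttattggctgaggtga

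Hmgb2, a chromatin protein, stood at 1696 CPM in the members and held 6 such matches, and Anp32e, a histone chaperone, stood at 575 CPM and held 5. Mcm6, a helicase subunit, stood at 304 CPM with 2 matches of the E2F forms and Cdca7 at 421 CPM with 1. The CCAAT box was not marked in these S phase genes, although Mcm6 holds it on the other strand, so numbers of matches do not compare between the phases. In windows of 300 bases (250 before and 50 after the start), TTTGAA was found for 29 of 44 G2/M genes with a promoter in the table (65.9%), 5 of 28 S phase genes (17.9%), 11.4% of 7814 tested genes and 18.1% of all 27025 promoters. The E2F forms were found for 15 of 28 S phase genes (53.6%), 5 of 44 G2/M genes (11.4%) and 13.4% of the tested genes, or 6.93% of all promoters. CCAAT was found in 75% of the G2/M set and 71.4% of the S phase set, against 39.5% of the tested genes and 37.9% of all promoters. No match was found for the E2F forms in the 16 neuroblast genes with a promoter. The matches are letters in a window and were not tied to binding in these cells.

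The members lay along the cycle rather than at 1 point of it. Summed per cell, the S phase list ranged from 0 to 14750 CPM with a median of 7151, and the G2/M list from 1871 to 43790 CPM with a median of 13407. Cells high in one list tended to be lower in the other (Spearman's rho −0.42 over 219 cells, a description, since cells share 1 library and both lists are shares of the same total). In 71 of 219 members the S phase list stood above the G2/M list. Over all members, the S phase list had 0.463 UMIs for each G2/M UMI (0.455 to 0.472), while the cycling neuroblasts had 0.307 (0.303 to 0.311) and S phase above G2/M in 88 of 463 cells. The same ratio was 0.4325 in non-cycling cells and 0.6646 in activated non-cycling cells, so alone it does not measure phase. The plot of the 2 lists per cell shows both groups on the same arc, with more of the neuroblasts at its G2/M end.

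**Figure D1:**
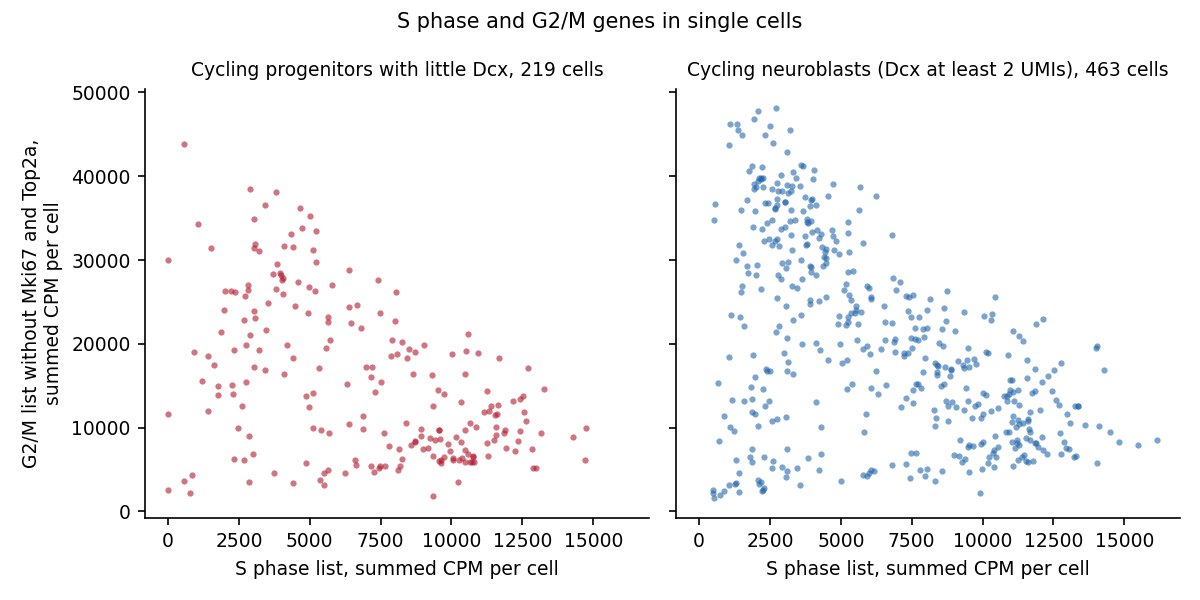
Summed CPM of the S phase list (x axis) and of the G2/M list without Mki67 and Top2a (y axis) in single cells, with 1 point per cell, for 219 cycling progenitors with little Dcx (left) and 463 cycling neuroblasts (right). The members reach 14750 CPM of S phase genes and 43790 CPM of G2/M genes, with few cells high in both, and the neuroblasts (median 18380 CPM of G2/M genes) lie higher on the same arc.

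The difference between the 2 cycling groups ran through whole lists at small size. Against cycling neuroblasts, 8693 genes were tested, of which 343 (3.95%) were higher in the members and 255 (2.93%) were lower. None of the 38 S phase genes and none of the 51 G2/M genes was past 2-fold, but 33 of 38 S phase genes had a ratio above 1 (median log2 0.22) and 49 of 51 G2/M genes one below 1 (median log2 −0.43), beside a median of 0.04 over all tested genes. Cdc6 (1.89), Gins2 (1.83) and Mcm3 (1.84) were among the S phase side, and Nusap1 (0.548), Cdc25c (0.590) and Hmmr (0.646) among the mitotic side. All 13 mitotic kinesins were below 1, from 0.570 for Kif14 to 0.848 for Kif15. All 16 nucleotide synthesis genes were above 1 and 3 were past 2-fold, among them the pyrimidine enzyme Cad at 2.91 (2.23 to 3.82) and the nucleotide pyrophosphatase Dctpp1 at 2.04. Since the neuroblasts also had more Mki67 and Top2a (1144 and 2320 CPM), which the rule used, the size of this shift depends on the limit. Members with at least 10 UMIs of the 2 genes had 0.411 S phase UMIs per G2/M UMI, and members chosen on thinned cells had 0.335. The values of the neuroblasts under these limits are not reported here.

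**Figure D2:**
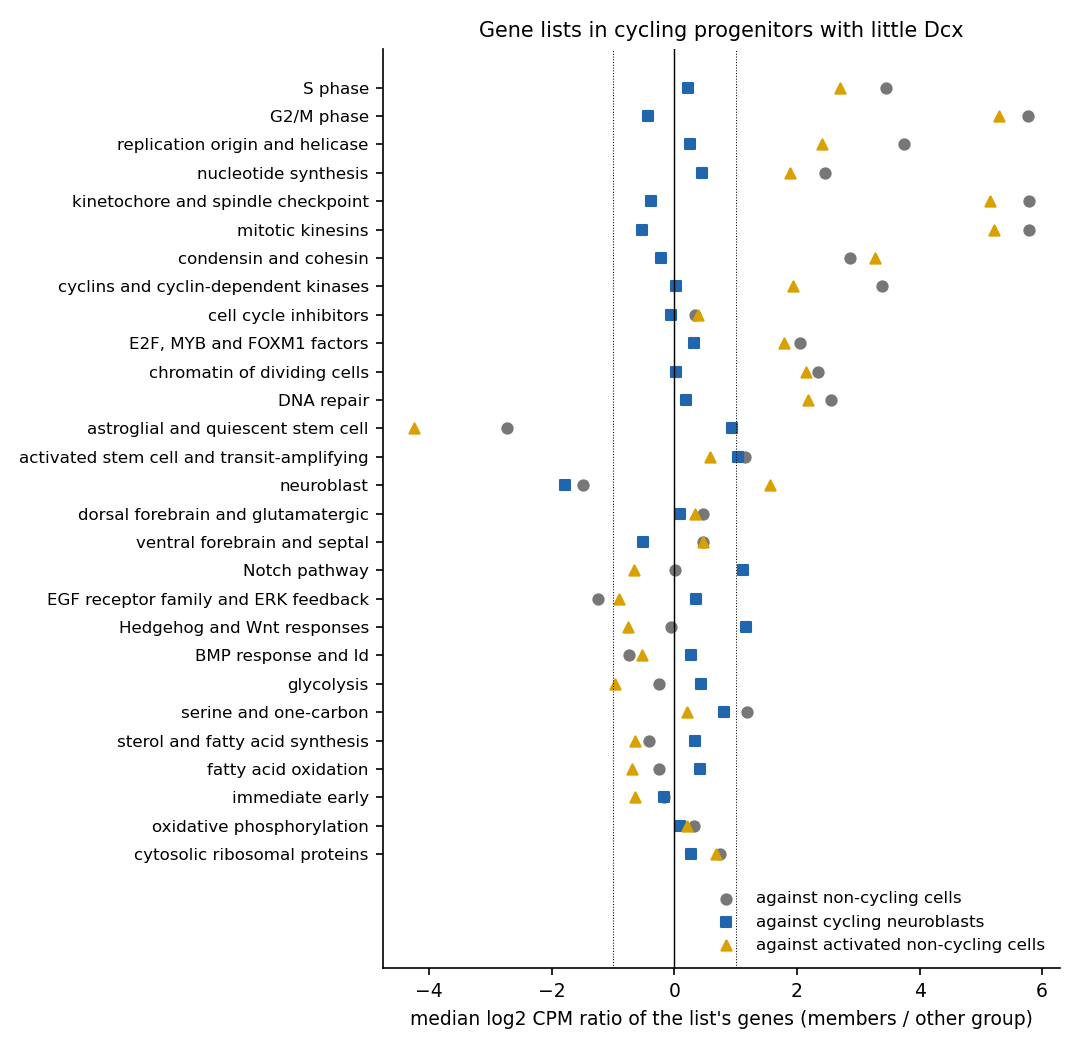
Median log2 CPM ratio of the genes of each of 28 lists, members over non-cycling cells (circles), over cycling neuroblasts (squares) and over activated non-cycling cells (triangles), with dotted lines at 2-fold. Cell cycle lists other than the inhibitors lie far to the right against non-cycling and activated non-cycling cells and near 0 against cycling neuroblasts, while the astroglial list (−2.73, 0.93 and −4.25 in that order of groups) and the neuroblast list (−1.49, −1.79 and 1.56) change side with the comparison.

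The lineage genes set the members apart from the cycling neuroblasts. The 2 groups were divided by Dcx, so genes that go with Dcx differ by choice and the values below are a description. In the list of activated stem cell and transit-amplifying genes, 10 of 20 tested genes were higher in the members and none was lower (median log2 1.04). Of all tested genes 3.95% were higher and 2.93% lower. Egfr stood at 274 CPM against 67.8, a ratio of 4.04 (3.52 to 4.64), with thinned shares of 31.3% and 11.5%. On cells chosen after thinning, the Egfr ratio was 2.45. Fabp7, the brain lipid-binding protein of radial glia and progenitors, was at 782 against 169 CPM (4.63, 4.25 to 5.04). Fabp7 UMIs were uneven, with a median of 392 CPM per member and 155 UMIs in the highest. Fabp7 was 2.22 times its level in non-cycling cells, but 1.08 times with the groups chosen on thinned cells.

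Several ratios to non-cycling cells moved when those cells met the same limits on Dcx and other markers (1705 cells). Dlx2 was then 10.5 times as high in the members in place of 1.95, Dlx1 8.49 in place of 1.39 and Ccnd2 9.55 in place of 2.57. Nes stood at 4.37 in place of 1.82, and Hes5 at 0.552 in place of 1.02. The ratios of Fabp7 and Olig2 were lower, at 1.35 and 0.341 in place of 2.22 and 0.523.

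Not every progenitor gene followed. Sox2, the factor of neural stem and progenitor cells, stood at 487 CPM in both cycling groups, with a ratio of 1.0 and a counting interval of 0.930 to 1.08. Sox1 had a ratio of 1.13 and Nes, the gene behind the reporter, one of 1.34 at 98.8 CPM. Vim, an intermediate filament gene, was at 0.582. Insm1, a factor of dividing neurogenic progenitors, was at 333 CPM with a ratio of 0.806. Of 7 tested genes of ventral forebrain patterning, 2 were higher and 1 lower (median log2 −0.52), beside 3.95% and 2.93% of all tested genes. The list summed to 0.698 of its level in the neuroblasts. Gsx1 (2.96, 2.17 to 4.07) was past 2-fold and Gsx2 (1.72) was not, and both also stood above non-cycling cells (13.8 and 13.0). Dlx1 and Dlx2, which act after them in interneuron progenitors, were lower than in the neuroblasts without passing 2-fold (0.586 and 0.70). Olig2 (3.34) and Olig1 (3.10), factors of oligodendrocyte and ventral progenitors, were higher than in the neuroblasts. Six3, a forebrain factor, was at 3.22, and Vax1, a ventral homeobox factor, was lower at 0.429. Nkx2-1, Lhx6, Lhx8 and Isl1, factors of other ventral domains, had no UMI in the members.

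Genes of the Notch pathway were higher than in the neuroblasts for 7 of 14 tested genes, with none lower, beside 3.95% and 2.93% of all tested genes. Among ligands Dll1 was at 49.7 CPM (ratio 3.80, 2.76 to 5.28), Dll3 at 93.3 CPM (2.62) and Jag1 at 74.3 CPM (3.69). Among receptors Notch2 had a ratio of 2.65 and Notch1 one of 1.69. Lfng, which modifies Notch, was at 3.77. The effector Hes5 (chromosome 4, 154960626 to 154962372) had the highest ratio of all genes at a mean of 50 CPM or more, with 355 UMIs in the members and 46 in the neuroblasts (17.3, 12.7 to 24). Its UMIs lay in 55 members, with up to 40 in 1 cell, and after thinning 12.1% of members had a UMI, against 1.95% of the neuroblasts and 0.389% of endothelial-marker cells. Hes6, which counters Hes1 and favours neurogenesis, was at 451 CPM (3.14). Hes1 was too low for a call, with 30 UMIs against 3. Dll1 was found in 62 members and Hes5 in 55, both in 19 of them. In cells thinned to equal depth Dll1 was found in 17 and Hes5 in 24 of 198, and both in 1. Nothing is read from these counts about whether the genes go together or exclude each other.

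Other signalling lists are given against each group. For each of them set against the neuroblasts, the shares of all tested genes were 3.95% higher and 2.93% lower. Of 7 tested genes of Hedgehog and Wnt responses, 5 were higher than in the neuroblasts and none was lower. Those higher were Sp5 (4.75), Tcf7l2 (3.24), Nkd1 (2.59), Gli2 (2.24) and Gli3 (2.02), at 13.9 to 85.4 CPM. Without the oligodendrocyte-marker member the list summed to 367 CPM in the members in place of 383 CPM. Summed, that list stood at 2.34 of its level in the neuroblasts, but at 0.543 of that in non-cycling cells (3 of 11 higher and 2 lower, beside 11.1% and 20% of all tested genes) and 0.514 of that in activated non-cycling cells (none higher, 4 lower, beside 13.5% and 18% of all tested genes). Of 9 genes of the BMP response, Id1 alone was past 2-fold (2.88, 2.30 to 3.62), and the list summed to 0.457 of its level in non-cycling cells and 0.277 of that in activated non-cycling cells. Of 7 genes of the EGF receptor family and its feedback, Egfr and the ETS factor Etv5 (2.77) were higher, and Erbb4 (0.159) and Etv1 (0.343) lower. Against non-cycling cells 8 of 13 genes of that list were lower and 1 was higher (median log2 −1.25), beside 20% and 11.1% of all tested genes. The share that was higher is near that of all genes. Among genes in no list, Thrsp, a gene of lipid synthesis (6.95, 166 CPM), Mfge8, a secreted glycoprotein (6.24, 441 CPM), Gas1, a Hedgehog co-receptor (4.06), and Ckb, brain creatine kinase (3.85), were above the neuroblasts. Helt, also in no list, a bHLH factor of GABAergic progenitors in the midbrain, stood at 84.0 CPM against 23.0 in the neuroblasts (3.65, 2.87 to 4.67) and 1.61 in non-cycling cells. It was found in 62 of 219 members and 20 of 3620 non-cycling cells. The ratio of Helt to non-cycling cells was 52.05, but 32 in cells with fewer than 4000 genes and 14.9 on thinned cells.

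**Figure D3:**
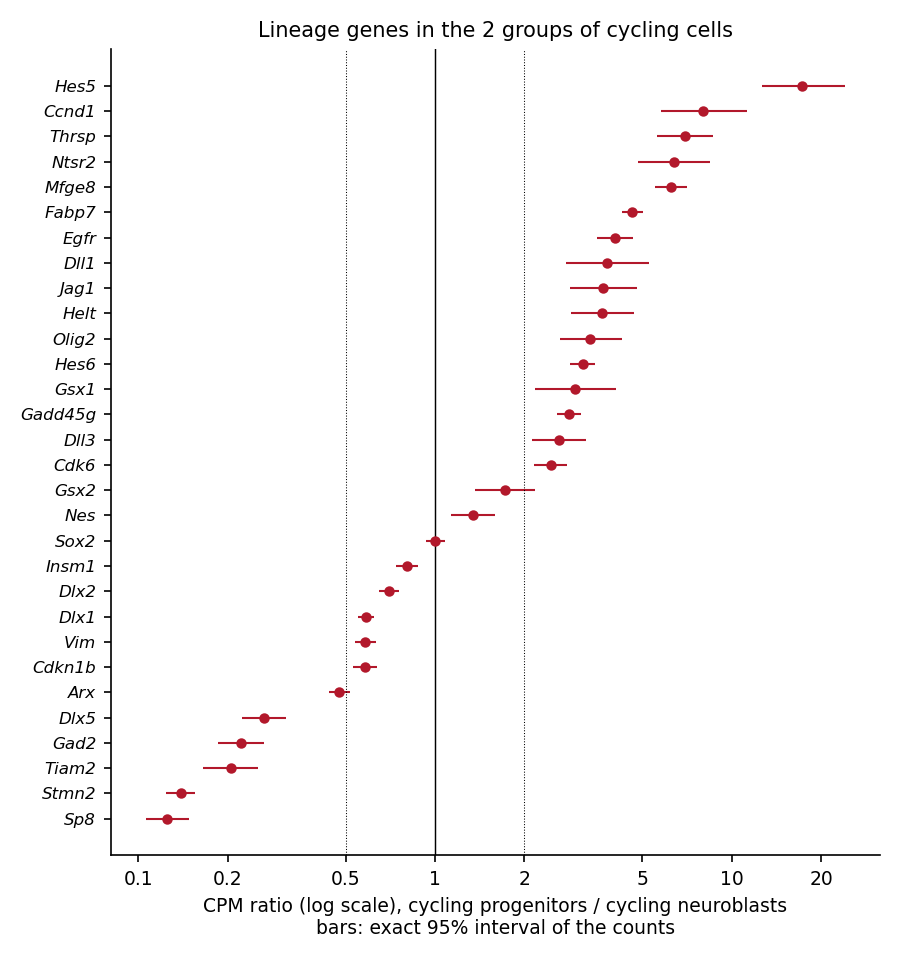
CPM ratio of 30 lineage and cell cycle genes, cycling progenitors with little Dcx over cycling neuroblasts (log axis), with points for the ratio, bars for the exact 95% interval of the counts, and dotted lines at 2-fold. Hes5 (17.3) and Ccnd1 (8.02) lie furthest to the right, Sox2 lies at 1.0, and Stmn2 (0.139) and Sp8 (0.126) furthest to the left.

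Cyclins and their kinases were split as a list between the 2 cycling groups, with 3 of 16 past 2-fold, 8 above 1 and 8 below 1 (median log2 0.03, against 0.04 over all tested genes). Of 11 inhibitors 2 were higher and 1 lower. For both lists, the shares of all tested genes were 3.95% higher and 2.93% lower. Ccnd1, a D-type cyclin that couples mitogens to the cycle (chromosome 7, 144929931 to 144939831), stood at 79.8 CPM against 9.95, a ratio of 8.02 (5.79 to 11.3). Its thinned share was 11.6% of members and 2.60% of the neuroblasts, and 8.95% of endothelial-marker cells also held a UMI. Against non-cycling cells its ratio was 2.42, but 0.855 for members chosen on thinned cells, the opposite direction. Ccnd2, the abundant D-type cyclin of the lineage, was found in 214 members and stood at 3312 CPM, 0.832 times the neuroblasts. Ccnd3 was at 2.46, and Cdk6, a partner of the D-type cyclins, at 225 CPM and 2.45 (2.15 to 2.79), while its homologue Cdk4 was at 1.15. Gadd45g (2.82) and Btg2 (2.09) were higher and Btg1 (0.487) was lower. Cdkn1b was at 0.582 and Cdkn2d, the p19 inhibitor of neuronal precursors, at 0.532, both short of a call. Mycn, a driver of progenitor growth, was at 2.17 (1.83 to 2.57).

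Ratios to the neuroblasts depended in size on how cells were chosen. Among cells with fewer than 4000 genes, Fabp7 stood at 7.27, Mfge8 at 10.3 and Olig2 at 5.95. With both groups chosen on thinned cells, Hes5 stood at 10.8 in place of 17.3, Ccnd1 stood at 4.08, Dll1 at 6.71 and Helt at 13.1, and the neuroblast genes Sp8 and Stmn2 at 0.414 and 0.396. No direction was reversed among these genes.

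Neuroblast genes were low. Of 26 tested neuroblast genes, 22 were lower than in the cycling neuroblasts and all 26 had a ratio below 1 (median log2 −1.79), and Dcx was not among them. Of all tested genes 2.93% were lower. Sp8, a factor of interneuron precursors, stood at 71.0 against 566 CPM (0.126, 0.106 to 0.148). Stmn2, a microtubule regulator of growing neurites, was at 149 against 1071 CPM (0.139). Gad1 and Gad2, which make GABA, were at 0.203 and 0.223, the guidance receptor Robo2 at 0.167 and Tubb3, neuronal tubulin, at 0.310. Against all non-cycling cells, which hold many Dcx-positive cells, 18 of 27 neuroblast genes were lower, beside 20% of all tested genes. Summed, the list stood at 6078 CPM against 14870 (0.409), but against non-cycling cells with the limits on Dcx and other markers the ratio was 1.27, the opposite direction, and that of Sp8 was 1.14. On thinned cells the ratio of the list to non-cycling cells was 0.761, short of 2-fold.

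Astroglial and quiescent stem cell genes were below their level in all non-cycling cells and above that in the cycling neuroblasts. Of 27 genes, 24 were lower than in non-cycling cells (median log2 −2.73), beside 20% of all tested genes. The astrocytic water channel Aqp4 stood at 9.28 CPM against 214, Clu at 38.0 against 880, and S100b, a glial calcium-binding protein, at 9.75 against 314. Against cycling neuroblasts, 9 of 21 tested genes were higher and none was lower (median log2 0.93), beside 3.95% and 2.93% of all tested genes. Ntsr2, a neurotensin receptor of astrocytes, had the highest ratio of the list (6.37). Apoe, the lipid carrier of astrocytes, stood at 830 against 351 CPM (2.36, 2.21 to 2.53), Mlc1 at 45.0 against 12.4 (3.62) and Gja1, the gap junction gene of astrocytes, at 46.9 against 20.9 (2.24). Sox9, a glial and stem cell factor, was at 0.90 (0.791 to 1.02).

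Per cell, the neuroblast list ranged from 933 to 36190 CPM in the members with a median of 5563, against a median of 17592 in the cycling neuroblasts. The ranges overlapped, and 45 members (20.5%) stood at or above the lower quartile of the neuroblasts (11950 CPM). The astroglial list ranged from 0 to 61530 CPM with a median of 1948, and 140 members (63.9%) stood above the upper quartile of the neuroblasts (1432 CPM). Members rich in one list were mostly poor in the other (rho −0.51 over 219 cells, a description, since both lists are shares of 1 total). Dcx alone thus left a mixed group, as the plot of the 2 lists shows.

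**Figure D4:**
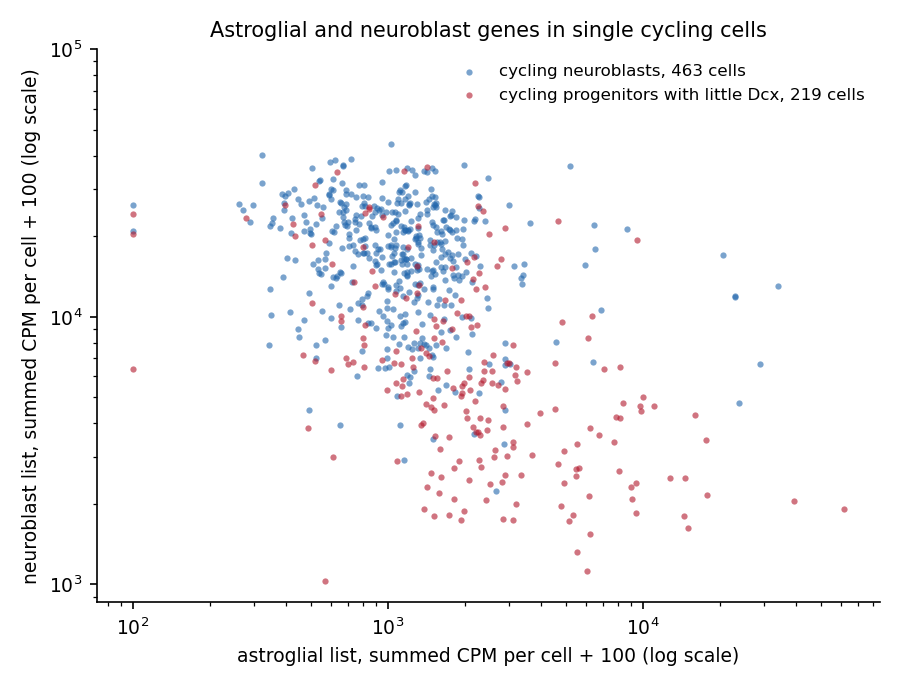
Summed CPM of the astroglial and quiescent stem cell list (x axis) and of the neuroblast list (y axis) per cell, each with 100 added and on a log axis, for 219 members (red) and 463 cycling neuroblasts (blue). The members spread from a region shared with the neuroblasts down to cells with few neuroblast UMIs and more astroglial ones, with medians of 5563 and 1948 CPM.

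The members were ordered by the log2 ratio of the neuroblast to the astroglial list, with 100 CPM added to each, and divided into 3 tiers of 73 cells. The tiers are ranges of a score, not cell types, and 51 cells lay within 0.25 of a limit. Genes of the 2 lists made the order and are not read from it. The first, astroglial tier had a median of 11040 UMIs and 36 cells with 4000 genes or more, the second 10520 UMIs and 28 cells, and the third, neuroblast tier 7622 UMIs and 10 cells. The oligodendrocyte-marker member lay in the first tier. Dcx, which limited the choice of members, stood at 16.7, 33.0 and 79.8 CPM.

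Egfr stood at 400, 275 and 70.3 CPM in the first, the second and the third tier, a ratio of the first over the third of 5.70 (4.05 to 8.23). The ratio was 20.5 in cells with fewer than 4000 genes and 2.56 in cells with no Dcx UMI, the same direction at other sizes. Hes5 was mostly in the first, at 333, 87.5 and 11.4 CPM (29.3, 13.3 to 80.4), and 29 of the 30 Hes1 UMIs lay there. Fabp7 (1395, 490 and 241 CPM), Jag1 (119, 58.3 and 26.6), Olig2 (132, 69.7 and 19.0), Gas1 (394, 93.8 and 36.1), Mfge8 (827, 281 and 64.6) and Id1 (144, 54.5 and 30.4) were likewise highest in the first tier. Ccnd1 stood at 129, 65.9 and 22.8 CPM, while Ccnd2 went the other way at 2344, 3781 and 4154 CPM.

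A few genes, picked for this pattern after their values were seen, had their highest value in the middle. Helt stood at 53.6, 156 and 24.7 CPM, Dll3 at 73.9, 143 and 49.4, and Cdk6 at 188, 313 and 154. Dll1 stood at 48.8, 71.0 and 19.0 CPM, from 41, 56 and 10 UMIs, so that its first and second tier are not told apart by so few counts. Dlx2 was low in the first tier and alike in the other two (144, 562 and 581 CPM), and so was Dlx1 (170, 777 and 883). With Dcx-free members alone, the ratio of the first over the third was 0.126 for Dlx2 and 2.11 for Ccnd1, in place of 0.248 and 5.65, and for members chosen on thinned cells it was 0.701 and 22.0. For Ccnd2 it was 0.564, and 0.854 on thinned cells. Highest in the third tier were Insm1 (235, 350 and 463), Prox1, a homeobox factor of neuronal precursors (27.4, 54.5 and 116), Cdkn1b (208, 220 and 460) and Btg1 (132, 110 and 310). Sox2 stood at 559, 447 and 433 CPM. The S phase list had 0.424, 0.572 and 0.390 UMIs per G2/M UMI, highest in the middle tier.

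**Figure D5:**
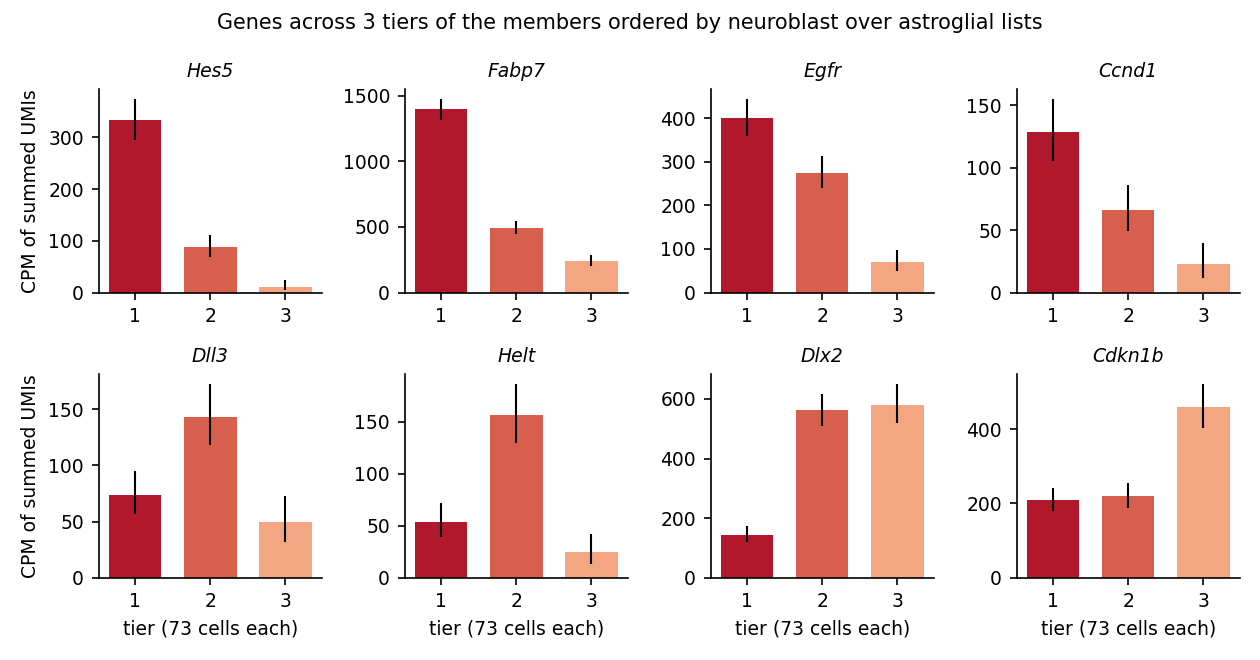
CPM of 8 genes in 3 tiers of 73 members each, ordered from the most astroglial (1) to the most neuroblast (3), with bars for summed UMIs and lines for the exact Poisson 95% interval of the count. Hes5, Fabp7, Egfr and Ccnd1 are lowest in tier 3, Dll3 (143 CPM) and Helt (156 CPM) are highest in tier 2, and Dlx2 (581 CPM) and Cdkn1b (460 CPM) are highest in tier 3.

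Single cells held genes of more than 1 tier. Egfr and Dlx2 were each found in 134 members and together in 82, and on thinned cells they were found in 62 and 101 of 198 and together in 22. Ccnd1 was found with Dlx2 in 41 of the 75 members with Ccnd1, and on thinned cells in 7 of 23. Nothing is read from these counts about whether the genes go together. Of 6 tested genes of the dorsal, glutamatergic list, 1 was higher and 1 lower than in non-cycling cells, near the shares of all tested genes (11.1% and 20%), and the list summed to 347 CPM against 276 there and 484 in the cycling neuroblasts. Pax6, a factor of dorsal progenitors and of some olfactory bulb interneuron precursors, made up 424 of its 748 UMIs in the members (ratio 1.91 to non-cycling cells) and Prox1 another 127. Other genes of the list lay in few cells. Eomes, of intermediate progenitors of excitatory neurons, was found in 12 members (48 UMIs) and Neurog2 in 8 (46 UMIs), 7 of them with both, and Eomes was found with Dlx2 in 3.

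Genes of translation and metabolism were read as lists. The 82 tested cytosolic ribosomal protein genes summed to 123000 CPM in the members against 72020 in non-cycling cells (ratio 1.71), with 80 of 82 above 1 (median log2 0.75, against −0.07 over all tested genes). Of these 11 were past 2-fold, a share near the 11.1% of all tested genes. Against cycling neuroblasts 80 of 82 were also above 1, at a summed ratio of 1.22 (1.22 to 1.23) and none past 2-fold. Genes of serine and one-carbon metabolism, which feed nucleotide synthesis, were higher than in non-cycling cells for 7 of 11 genes, beside 11.1% of all tested genes. Among them were Mthfd2 (18.8), Shmt1 (5.44) and Phgdh, the first enzyme of serine synthesis (2.12). Summed, the list had a ratio of 2.82, and of 1.78 with the limits on Dcx and other markers put on the non-cycling cells. All 12 genes of the list tested against the neuroblasts were above 1 and 3 passed 2-fold (Gldc at 2.27, Phgdh at 2.20 and Shmt1 at 2.13), beside 3.95% of all tested genes. Along the tiers the list stood at 1653, 1493 and 952 CPM. Of 72 genes of oxidative phosphorylation none was higher than in non-cycling cells and 2 were lower (Cox4i2 at 0.022 and Atp5sl at 0.338), while 59 were above 1, with a summed ratio of 1.24. Of 15 glycolysis genes 4 were lower, among them Aldoa at 0.246, and Gapdh was higher at 2.21, counts near the 20% lower and 11.1% higher of all tested genes, while against the neuroblasts Aldoa (2.31) and Ldha (2.14) were higher. Of 22 sterol and fatty acid synthesis genes 6 were lower than in non-cycling cells and none was higher, again near the share of all tested genes, and Srebf1, a regulator of lipid synthesis, was the only one past 2-fold above the neuroblasts (2.83). Without the oligodendrocyte-marker member that list summed to 1672 CPM in the members in place of 1935 CPM, and Srebf1 was not recomputed.

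Activated non-cycling cells were chosen partly on Egfr, so that gene, at 400.0 CPM there, is no finding here. Of 9488 genes tested, 1281 (13.5%) were higher in the members and 1710 (18.0%) were lower. The 2 groups were also divided by Mki67 and Top2a, so genes of the cell cycle differ by choice and are given as a description. All 38 S phase genes and 49 of 51 G2/M genes were higher. Summed, the S phase list had a ratio of 5.46, and of 2.71 with the groups chosen on thinned cells. Aurkb had 390 UMIs against 1 (ratio 185, 33.0 to 7328) and Cdc20, which activates the anaphase-promoting complex, 488 against 1 (232, 41.4 to 9165), intervals that are wide because of the single count. Astroglial genes were the reverse. Of 27 genes 26 were lower in the members (median log2 −4.25), with Aldoc, the aldolase of astrocytes, at 47.3 against 2301 CPM and Apoe at 830 against 16060. The list summed to 3210 CPM in the members and 44960 in the activated non-cycling cells, whose median cell held 47904 CPM. That group was largely astroglial in content, and activated stem cells in it cannot be told apart from astrocytes with Egfr.

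Some genes of the neurogenic lineage, named here as examples, were above the activated non-cycling cells. Dlx1 was at 567 against 80.2 CPM (7.07, 5.65 to 8.95) and Dlx2 at 404 against 58.7 (6.88). Insm1 was at 4.73 and Ccnd2 at 3.31. Of 26 neuroblast genes 19 were higher and 1, the long noncoding RNA Meg3, was lower at 0.373, beside 13.5% and 18.0% of all tested genes. Nes was higher too, at 98.8 against 39.1 CPM (2.53, 1.80 to 3.64). With the groups chosen on thinned cells, Nes (1.43) and Ccnd2 (1.98) were no longer past 2-fold, and Dlx2 stood at 3.47. Hes5 was lower, at 165 against 706 CPM (0.233, 0.205 to 0.265), as were Notch2 (0.277) and Lfng (0.211), whereas Dll1 (1.37), Dll3 (1.49) and Notch1 (1.03) were within 2-fold. Hes6 was at 2.14. On thinned cells Dll1 stood at 0.302 and Hes6 at 0.562, both below 1.

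Values on both sides of each limit of the rule are given next. Cells that met the other limits with 1 UMI of Mki67 and Top2a together (91 cells) had a median of 739 CPM of S phase genes and 1812 CPM of G2/M genes, with Egfr at 99.5 CPM. Those with 2 UMIs (23 members) had medians of 4392 and 5875 CPM and Egfr at 445 CPM. The 12 with 3 UMIs had Egfr at 129 CPM, and the 184 with 4 or more had 267 CPM. On the Dcx side, the 137 members with no Dcx UMI had Egfr at 308 CPM and a median of 4328 CPM of neuroblast genes, and the 82 with 1 UMI had 220 and 7268 CPM. Just outside, the 75 cells with 2 Dcx UMIs had 95 and 14714 CPM, and the 88 with 3 had 82.5 and 16283 CPM. Cells without any Mki67 or Top2a UMI could hold replication genes: 35 cells that met the other limits had S phase genes at or above the lower quartile of the members, with Egfr at 442 CPM.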

How the data were processed

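Single Nestin-GFP-positive cells of mouse brain and lung were measured as UMI counts in 1 library per tissue. Per the labels, the authors demultiplexed the reads with bcl2fastq 2.19.1.403, processed UMIs with UMI-tools 1.0.0, aligned with STAR 2.7.1a to mm10, assigned reads to genes with featureCounts of Subread 1.6.4, and deposited whole-number UMI counts per gene and cell. The annotation version and the choice of barcodes are not given in the sources used here. The deposited brain table held 4640 barcodes, and 4569 were kept as described, with 26088678 UMIs and a median of 4487 per cell.

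UMIs were summed per group and divided by the group total, and ratios were given exact conditional binomial 95% intervals, which cover counting error only. A count of 0 was set to a floor of 3 counts over the group. Genes with a mean of at least 10 CPM over 2 groups were compared, without the 7 genes of the rule. The genes named were, per comparison, the 15 highest and 10 lowest ratios and the 15 highest outside the cell cycle lists, at a mean of at least 50 CPM, plus members of the lists. Of 530 listed symbols 523 had counts, 7 of them under another symbol, and the other 7 were not analysed here. These include Ung, Uhrf1, Ubr7 and Usp1 of the S phase list and Ube2c of the G2/M list, since no gene with a symbol beginning with U was analysed here, and nothing on their expression follows. Shares of cells carry exact Clopper-Pearson intervals. Cells were thinned to 2000 UMIs without replacement. No doublets were removed in the main analysis, and Scrublet (expected rate 0.06, in scanpy 1.11.5) was used for the calls given. Scripts ran in Python 3.11.15 with numpy 2.4.6, scipy 1.17.1 and pandas 2.3.3 and were tested on simulated data. Promoters and gene positions were those of RefSeq, GRCm38.p6. The members and lists were chosen with earlier results of these data known. Some genes of the lists are not reported here by name, but they stay in the counts and sums of their lists. With 1 library there was no test between conditions. Of the 13 alternatives tried, 2 were chosen after seeing the data.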

Additional observations from a re-analysis of the deposited data

Results flagged for a closer look

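In the lung library, which entered no comparison, 556 of 5915 kept cells (9.40%, exact 95% interval 8.67 to 10.2%) had at least 2 UMIs of Mki67 and Top2a together. The value is listed because these cells lie outside the comparisons, and nothing is read from it. These cells held 3 Dcx UMIs and 104 Egfr UMIs (20.1 CPM) of 5167148 UMIs, against 274 CPM of Egfr in the brain members.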

How the results depend on the processing

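Of 124 values for the comparisons recomputed under 13 alternatives, 99 kept their size, 25 moved and none was labelled reversed. Of 1135 values for single genes and lists, 713 kept theirs, 403 moved and 19 were labelled reversed. A count kept its size within 1.5 times, and a ratio within its counting interval. Only a ratio past 2-fold in the main analysis that crossed 1 was labelled reversed, so no count could be. Smaller ratios that crossed 1 are among those that moved. An example is Dll1 against activated non-cycling cells, at 1.37 and at 0.302 on thinned cells. The members numbered 145 under 4000 genes, 137 with no Dcx UMI, 411 on cells thinned to 2000 UMIs and 127 with at least 10 Mki67 and Top2a UMIs. The S phase to G2/M UMI ratio was 0.5239 with no Dcx UMI, 0.4833 without members with other markers, 0.3351 on thinned cells and 0.4114 with at least 10 UMIs. The Egfr ratio of the first over the third tier was 20.45 under 4000 genes and 2.56 with no Dcx UMI. Egfr against non-cycling cells was 4.656 under 4000 genes, 7.357 with no Dcx UMI, 2.638 on thinned cells, 5.731 as a mean of CPM per cell and 4.165 with the same limits on non-cycling cells, and against cycling neuroblasts 4.928 under 4000 genes and 2.454 on thinned cells. Genes lower than in the neuroblasts were 411 with no Dcx UMI and 130 on thinned cells. With no filter on low counts, 4282 genes were higher and 4571 lower than in non-cycling cells, 2405 higher and 1063 lower than in the neuroblasts, and 4163 lower than in activated non-cycling cells. With the same limits on non-cycling cells 1638 genes were higher, and the neuroblast list (1.272) and Sp8 (1.135) were reversed. Mag and Nfasc were reversed: Mag against neuroblasts was 0.9114 under 4000 genes, 0.7094 with no Dcx UMI, 0.5519 without other markers and 0.6978 without the oligodendrocyte-marker member, and against activated non-cycling cells 0.1794, 0.2005, 0.156 and 0.1972 in that order. Nfasc against activated non-cycling cells was 0.733, 0.5334, 0.5265 and 0.5008 in the same order, and against neuroblasts 0.912, 0.9003 and 0.8564 in the last 3 settings. On thinned cells Ccnd1 against non-cycling cells was 0.8549 and Hes6 against activated non-cycling cells 0.5616. Causes other than the changed choice of cells were not tested. A gene with no UMI in the members could be present up to 1.39 CPM. No paired analysis was possible because each tissue has 1 library and the groups are cells of the same library.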
